A study of Mus with 6 samples.

Results

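The long-chain acyl-CoA synthetase (ACSL) genes were examined in activated CD4+ T cells in which VEGF-B was neutralized. The family has 5 named members, Acsl1, Acsl3, Acsl4, Acsl5 and Acsl6, and was chosen by name and on the measured difference between treatments, since Acsl5 and Acsl3 moved in opposite directions. Of these 5 genes, 4 were among the 10995 protein-coding genes of the table and Acsl6 was not analysed here. The differences of the Acsl genes between treatments are therefore given as a description, with no test and no call.

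The cells were wild-type mouse spleen CD4+ T cells, naive at the start, and all libraries share an activation of 3 days, in which anti-CD3 (5 μg/mL), anti-CD28 (2 μg/mL) and 100 U/mL of IL-2 were given. One group received a neutralizing antibody to VEGF-B at 1 μg/mL and the other normal goat IgG at 1 μg/mL, with 3 RNA-Seq libraries each. The methods name C57BL/6 as the stock of purchased mice, without tying it to these libraries, and the age of the mice behind them was not given in the sources used here. Nothing in the labels says whether the 3 libraries of a group came from separate mice or cultures, so that the spread given may be technical. The table names no unit. As its values carry decimals, they were taken as FPKM from the programs named in the methods, a unit that takes out transcript length and library size, and each comparison of levels between genes rests on that reading.

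ACSL enzymes join a long-chain fatty acid to coenzyme A at the expense of ATP. This step traps the fatty acid in the cell and makes it a substrate for phospholipid and triglyceride synthesis, for sterol ester formation and, after transfer to carnitine, for mitochondrial oxidation. The isoforms differ in the membranes they sit on and in the fatty acids they prefer, and proliferating T cells need their product for new membranes.

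Before the genes themselves, the libraries were compared. All 7 markers of CD4+ T cells were present, with a summed level of 425 to 468 FPKM with anti–VEGF-B and 439 to 517 with IgG. Cd4 itself was between 64.0 and 74.6 FPKM, while Cd3e (-0.51, adjusted p = 0.0197 from limma) and Cd5 (-0.38, adjusted p = 0.0343) were called lower with anti–VEGF-B, a call being an adjusted p under 0.05. Of the CD8 genes, Cd8a was at most 0.182 FPKM, but Cd8b1 was between 2.27 and 4.51, with overlapping groups. The part of these markers in the results below was not tested. Of 22 markers of cells other than T cells, 5 were listed, and the myeloid ones stood out in 1 library. In IgG replicate 3, Lyz2 was at 16.4 FPKM, Csf1r at 1.57 and Cd14 at 1.80, against at most 4.19, 0.380 and 0.777 in the other 5. The median log2 difference between anti–VEGF-B and IgG over the 8816 genes tested was -0.15, and 71.2% of them had a difference below 0, so the differences of Acsl5, Acsl3 and Acsl4 are also given relative to this median. In pooled RNA, fewer cells of a type and less RNA per cell cannot be told apart.

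In IgG-treated cells the family was carried by Acsl4, which held most of the family's FPKM, while Acsl3 and Acsl5 shared nearly all the rest at almost equal levels. With anti–VEGF-B, Acsl5 was lower by 56.1% and Acsl3 higher by 32.1% in mean FPKM, and Acsl3 stood above Acsl5 in all 3 anti–VEGF-B libraries. The mean of Acsl4 was lower by 13.3%, and the groups overlapped for Acsl1. These values are shown for every library in the plot of FPKM by treatment.

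**Figure D1:**
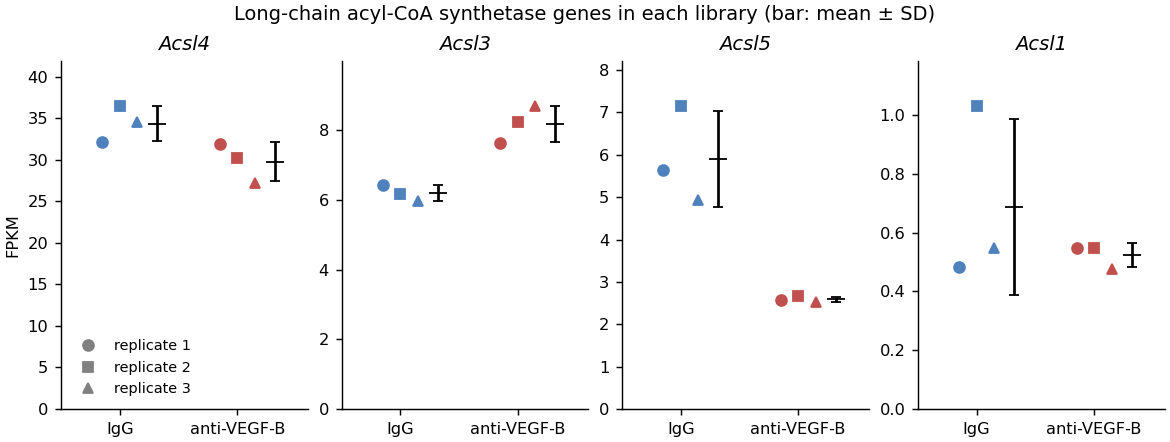
FPKM (vertical axes, starting at 0) of Acsl4, Acsl3, Acsl5 and Acsl1 in the 3 IgG (blue) and 3 anti–VEGF-B (red) libraries, with symbols for the replicate number and black bars for the mean ± SD. Acsl5 sat between 2.54 and 2.66 with anti–VEGF-B, under all IgG values, Acsl3 lay above its IgG values, and the single high Acsl1 value was IgG replicate 2.

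Acsl5 encodes an isoform found at mitochondria and the endoplasmic reticulum (ENSMUSG00000024981.6, chromosome 19 of GRCm38, 55251938 to 55297720, forward strand). Its level was 2.58, 2.66 and 2.54 FPKM after neutralization of VEGF-B, against 5.64, 7.14 and 4.93 with control IgG, replicates 1 to 3 in order. The groups did not overlap, and the values with anti–VEGF-B were much closer to each other (coefficient of variation 2.33%) than those with IgG (19.1%). Mean levels were 2.59 ± 0.0603 against 5.90 ± 1.13 FPKM (SD, n = 3 each), a 2.28-fold higher level with IgG. On the log2(FPKM + 1) scale, which understates the change of low genes, the difference was -0.93 (standard error 0.126), which is -0.78 once the median of all genes is subtracted. Among all genes listed, Acsl5 stood at percentile 57.5 of mean FPKM in the IgG group and 42.6 in the anti–VEGF-B group. The study had already named the gene as lower (printed as Acls5), so its direction is not a new result. It cited these libraries and also transcript levels in antibody-treated CD4+ or CD8+ T cells.

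Acsl3 encodes the isoform of the endoplasmic reticulum and of nascent lipid droplets, where it takes part in their growth (ENSMUSG00000032883.15, chromosome 1, 78657825 to 78707743, forward strand). It was at 7.64, 8.22 and 8.68 FPKM in anti–VEGF-B cells against 6.42, 6.18 and 5.98 in IgG cells. All 3 anti–VEGF-B libraries lay above all 3 IgG libraries, and the gap between the closest values was wider than the range within either group. The means were 8.18 ± 0.520 and 6.19 ± 0.222 FPKM (SD, n = 3 each), a ratio of 1.32. The log2 difference was 0.35 (standard error 0.0895), which is 0.50 once that median is subtracted, and the gene moved from percentile 58.5 of mean FPKM in the IgG group to 67.8 in the anti–VEGF-B group.

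Acsl4, whose enzyme prefers arachidonic acid and other polyunsaturated fatty acids and is known for its part in ferroptosis, is on chromosome X (ENSMUSG00000031278.12, 142317993 to 142390535, reverse strand). Its FPKM were 31.9, 30.2 and 27.3 in anti–VEGF-B cells against 32.1, 36.4 and 34.6 in IgG cells. The groups lay apart only narrowly, with anti–VEGF-B replicate 1 just under IgG replicate 1. The log2 difference was -0.20 (standard error 0.0856), which is -0.049 once that median is subtracted. It was -0.00025 after median centring of the libraries, -0.142 after quantile normalization and -0.135 after scaling to Actb. Under the alternatives in which it was measured it ran from -0.25 to -0.00025. At 29.8 ± 2.35 and 34.4 ± 2.16 FPKM (SD, n = 3 each), Acsl4 stood at percentile 88.8 of mean FPKM in the anti–VEGF-B group and 90.0 in the IgG group.

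Acsl1, the main isoform of fat, heart and liver, was barely present (ENSMUSG00000018796.13, chromosome 8, 46471037 to 46536051, forward strand). It was at 0.547, 0.546 and 0.476 FPKM in anti–VEGF-B cells against 0.484, 1.03 and 0.548 in IgG cells, and the groups overlapped. Its mean was under the filter of 1 FPKM, and its log2 difference of -0.13 (standard error 0.121, from a fit without the filter) rested on IgG replicate 2. Without that library it was 0.0065. The difference was also above 0 after quantile normalization (0.042) and median centring (0.089), so no direction is given for Acsl1. The library with raised myeloid markers was not the one with raised Acsl1.

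Of all genes tested, limma called 23.8% lower with anti–VEGF-B and 4.87% higher. Of the 3 Acsl genes past the filter, the groups lay apart downward for Acsl5 and Acsl4, as for 38.5% of all genes, and upward for Acsl3, as for 10.5%. As the genes were chosen on this contrast, nothing is read from these counts. Acsl5 had a log2 difference at percentile 1.11 of all genes tested, Acsl4 at 43.0 and Acsl3 at 96.2.

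**Figure D2:**
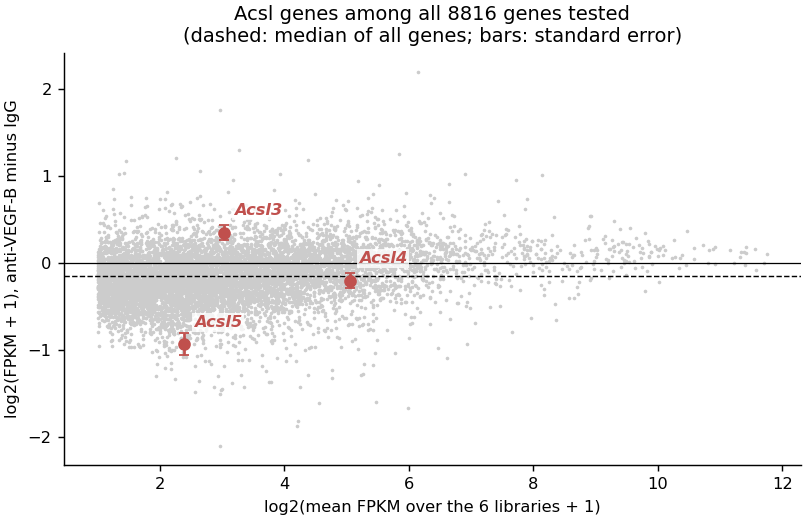
Log2 difference between anti–VEGF-B and IgG (vertical axis) against mean level (horizontal axis, log2 scale) for the 8816 genes tested (grey), with Acsl3, Acsl4 and Acsl5 in red with their standard errors and the median of all genes as a dashed line. Acsl4 lies close to that line, Acsl5 far under it at -0.93 and Acsl3 above it at 0.35.

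The 4 genes summed to 42.7, 41.6 and 39.0 FPKM in anti–VEGF-B cells against 44.7, 50.8 and 46.0 in IgG cells, a mean lower by 12.9%. The direction of this sum turned with the scaling, since divided by each library's median FPKM it was 11.7, 11.3 and 11.3 in anti–VEGF-B cells and 10.8, 10.7 and 10.9 in IgG cells. The share of a gene in the sum does not depend on such a factor. Acsl4 made up 72.4 ± 2.39% of the pool in anti–VEGF-B cells against 72.9 ± 1.90% in IgG cells (SD, n = 3 each), a difference within the spread. The share of Acsl5 was 6.04%, 6.38% and 6.51% in anti–VEGF-B cells against 12.6%, 14.1% and 10.7% in IgG cells, lower by 6.16 percentage points in the mean. The share of Acsl3 was 17.9%, 19.8% and 22.3% in anti–VEGF-B cells against 14.4%, 12.2% and 13.0% in IgG cells, higher by 6.80 points. The share of Acsl1 was between 1.08% and 2.03%.

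**Figure D3:**
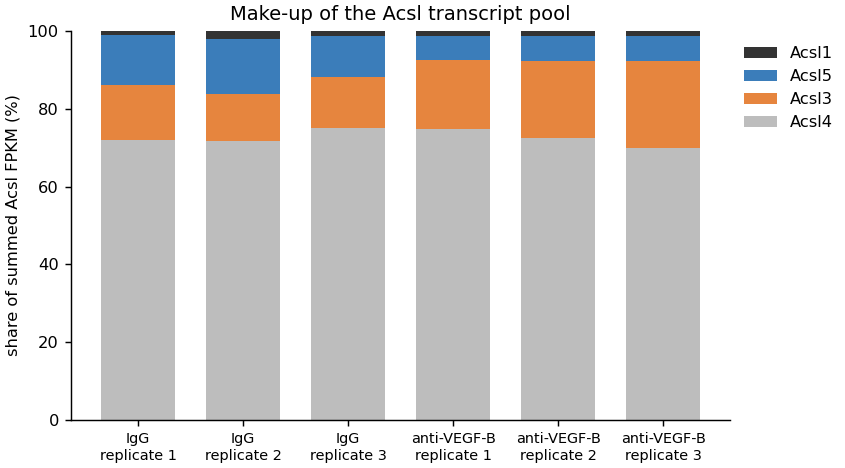
Share of each gene in the summed FPKM of the 4 Acsl genes (vertical axis, percent) in each of the 6 libraries (bars). The grey Acsl4 part is between 70.0% and 75.1% in all of them, while the blue Acsl5 part is narrower and the orange Acsl3 part wider in the anti–VEGF-B libraries.

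The order of the levels changed accordingly. With IgG it was Acsl4, then Acsl3 and Acsl5, then Acsl1. The Acsl3 values of 5.98 to 6.42 FPKM lay inside the Acsl5 range of 4.93 to 7.14, so these neighbours did not differ beyond their spread, with an Acsl3 to Acsl5 ratio of 1.07 ± 0.182 (SD, n = 3). The Acsl3 value was the higher of the pair in IgG replicates 1 and 3 and the lower in replicate 2. With anti–VEGF-B the ratio was 2.96, 3.10 and 3.42, and no pair of neighbours overlapped. The ratio of Acsl4 to Acsl5 was 11.5 ± 0.818 in anti–VEGF-B cells against 5.94 ± 0.977 in IgG cells, and that of Acsl4 to Acsl3 was 3.66 ± 0.518 and 5.56 ± 0.485 (SD, n = 3 each).

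The opposite directions of Acsl5 and Acsl3 were seen under each scaling, filter and set of libraries in which they were measured. The genes were chosen for these directions, and as their groups lay apart, only the scalings could have turned them. The log2 difference of Acsl5 ran from -1.14 to -0.71 and that of Acsl3 from 0.31 to 0.55. Without IgG replicate 3, the library with raised myeloid markers, they were -1.03 and 0.33. Without IgG replicate 2, the library with the highest Acsl5, they were -0.81 and 0.35.

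**Figure D4:**
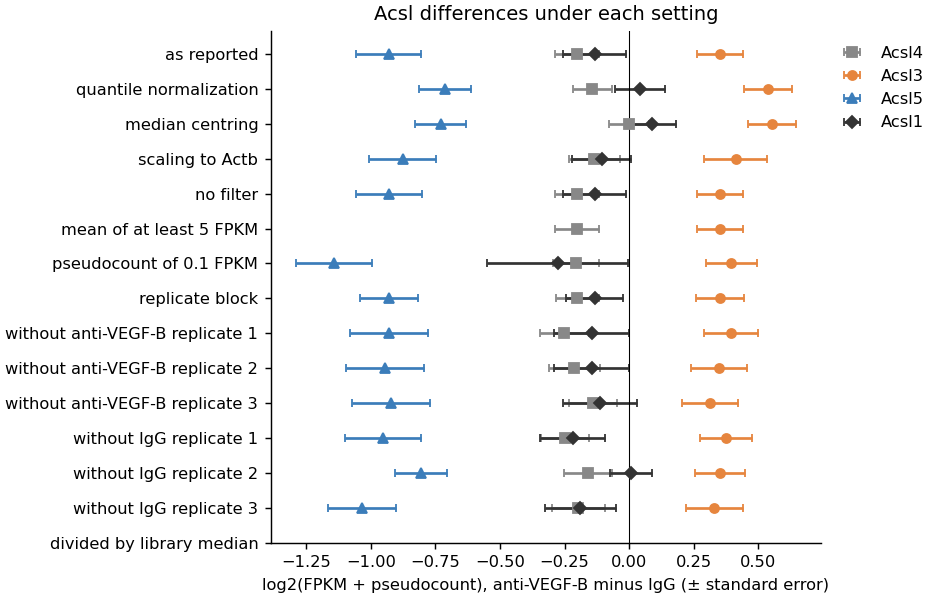
Log2 difference between anti–VEGF-B and IgG with its standard error (horizontal axis) for the 4 Acsl genes under each setting (rows), the first being the values reported above. Acsl5 is left of 0 and Acsl3 right of 0 in each row where it is shown. Acsl4 runs from -0.25 to -0.00025, the latter after median centring, and Acsl1 lies on either side of 0.

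In the table's annotation both Acsl5 and Acsl3 share part of their locus with another gene. There Zdhhc6, a palmitoyltransferase gene on the reverse strand of chromosome 19 (55271291 to 55316032), overlaps Acsl5 by 26430 bases. In RefSeq (GRCm38.p6) Zdhhc6 starts at 55298216, past the end of Acsl5 at 55296628, so that the genes do not overlap there. It was at 0.816, 0.740 and 0.818 FPKM in anti–VEGF-B cells against 1.10, 1.55 and 1.11 in IgG cells, thus also lower in all 3 libraries (log2 difference -0.33, adjusted p = 0.0512 from limma, not called). Utp14b, a gene of ribosome assembly on the same strand as Acsl3 (chromosome 1, 78658038 to 78671512), lies within it over 13475 bases. It was at 0.914, 1.02 and 1.02 FPKM in anti–VEGF-B cells against 1.40, 1.53 and 1.54 in IgG cells, lower where Acsl3 was higher (log2 difference -0.33, adjusted p = 0.0317 from limma). The libraries were stranded, but whether strand was used in quantification is not given in the sources used here, and a split of reads between overlapping genes was not tested. Both overlapping genes were chosen by position, after the table had been opened.

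Over the 6 libraries, the genes most like Acsl5 in log2(FPKM + 1) were Taf11, Lig1 and Saysd1, with Pearson's r of 0.9999, 0.999 and 0.999. Those most like Acsl3 were Gas2l3, Tbl2 and Zdhhc4 (0.993, 0.993 and 0.988), and those most like Acsl4 were Soat2, Chsy1 and Kat5 (0.994, 0.991 and 0.990). An r over 0.95 with Acsl5 was reached by 823 genes, with Acsl4 by 298 and with Acsl3 by 91. These 6 points fall into the treatment groups, so that any gene that differs between them scores high. Between the members r was -0.91 for Acsl3 with Acsl5, -0.90 for Acsl3 with Acsl4 and 0.81 for Acsl4 with Acsl5.

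The genes around the ACSL step were taken from 8 lists of enzymes that supply fatty acids, make, hold or split acyl-CoA, or use it. Of 142 genes named, 91 were listed and 77 tested, of which 21 were called lower (27.3%) and 5 higher (6.49%), close to the shares over all genes. Their median log2 difference was -0.17, against -0.15 over all genes. The split turned with the scaling, to 5 lower and 9 higher after quantile normalization and 6 and 13 after median centring, where the median of all genes was 0.0077 and 0.049. Of all genes tested, 10.4% were then called lower and 9.98% higher after quantile normalization, and 9.15% and 15.5% after median centring. The counts also fell without some libraries, to 6 lower and 4 higher without anti–VEGF-B replicate 3 and 9 and 3 without IgG replicate 2. They were 12 and 3 without anti–VEGF-B replicate 2 or IgG replicate 3. Over all genes the share called lower fell too, to 7.92%, 12.3%, 16.5% and 17.3% in the same order. The share called higher fell to 1.84%, 2.95%, 3.23% and 3.74%.

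**Figure D5:**
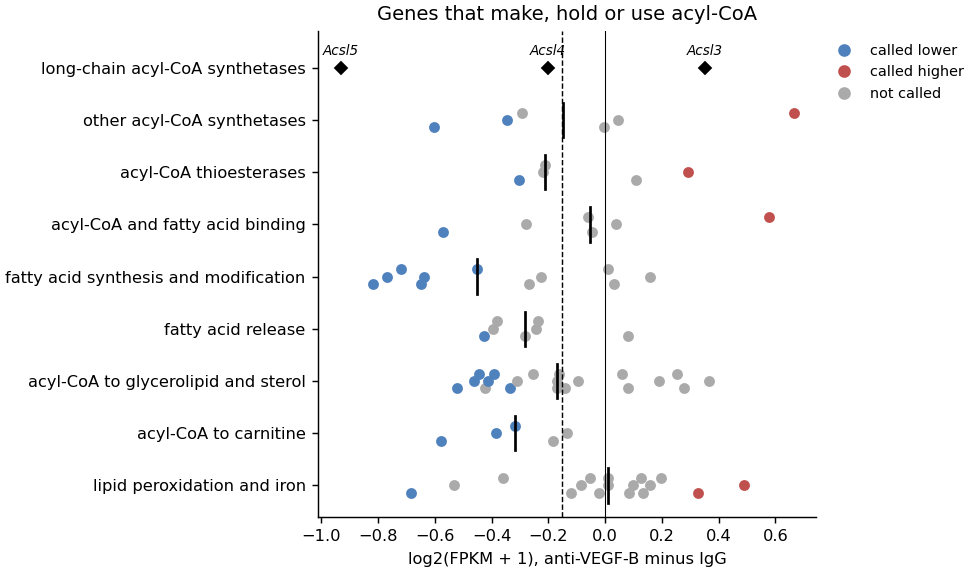
Log2 difference between anti–VEGF-B and IgG (horizontal axis) for each tested gene of the 8 lists (points, coloured by call at an adjusted p under 0.05 in limma), with list medians as short bars, the median of all genes as a dashed line, and the Acsl genes as diamonds at the top. The median of fatty acid synthesis and modification is -0.45 and that of lipid peroxidation and iron 0.011.

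Upstream of the ACSL step, 6 of 11 tested genes of fatty acid synthesis and modification were called lower (54.5%, against 23.8% of all genes tested), with a median log2 difference of -0.45. Called higher were 0 in limma, also at an unadjusted p under 0.05. The study had named Scd1, Scd2, Fads1, Fads2 and Fasn from these libraries, so that this count is not independent evidence of a direction. Elovl5, an elongase gene, was the only other call (log2 difference -0.45). For the genes it named, the paper does not rest on these libraries alone, and also cites transcript levels in antibody-treated CD4+ or CD8+ T cells. It further reports, by qPCR, reduced fatty acid synthesis genes in Vegfb-deficient CD8+ T cells of infected mice. The lowest p belonged to the desaturase genes Scd2 (-0.65, adjusted p = 0.00756 from limma), Fads1 (-0.64, 0.00899) and Scd1 (-0.72, 0.00975). Scd1 and Scd2 are similar enough in sequence for reads to be split between them. The count was 4 after quantile normalization and 5 after median centring, where 10.4% and 9.15% of all genes tested were called lower. Of 7 genes that release fatty acids from stored lipid, only Lipa, the lysosomal acid lipase gene, was called (-0.43, adjusted p = 0.0169 from limma), and this call was lost after quantile normalization (-0.19, adjusted p = 0.117) and median centring (-0.22, adjusted p = 0.0738).

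Among 6 tested genes of other acyl-CoA synthetases, Slc27a3, of the fatty acid transport protein family, was called higher, at 6.84 ± 0.201 FPKM in anti–VEGF-B cells against 4.01 ± 0.993 in IgG cells (log2 difference 0.66, adjusted p = 0.0116 from limma). Its relative Slc27a1 (-0.35, adjusted p = 0.0498) and Aacs, which activates acetoacetate (-0.60, adjusted p = 0.0453), were called lower. Slc27a4 had a log2 difference of -0.29, Acsbg1 of -0.0036 and Acss2 of 0.044, with no call. The calls made up 33.3% (lower) and 16.7% (higher) of the list, against 23.8% and 4.87% of all genes tested. The median of the list was -0.15. The call of Slc27a1 was lost under each alternative in which it was measured (adjusted p from 0.0522 to 0.431 in limma) and that of Aacs under 10 of 13 (adjusted p from 0.0140 to 0.179), while Slc27a3 kept its call under 13 of 14. In mean FPKM, Slc27a3 (6.84) was above Acsl5 (2.59) with anti–VEGF-B and, at 4.01, under it (5.90) with IgG. The order with IgG did not hold in replicate 3, where Slc27a3 was at 5.12 FPKM and Acsl5 at 4.93.

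Among genes that bind acyl-CoA, Dbi, which encodes a small acyl-CoA-binding protein, was called lower (-0.57, adjusted p = 0.0160 from limma) and its relative Acbd7 higher (0.58, adjusted p = 0.0166). The mean of Dbi was 3.37 FPKM in anti–VEGF-B cells and 5.49 in IgG cells. Fabp5, a fatty acid-binding protein gene, had a log2 difference of -0.048. Among 5 thioesterase genes, whose enzymes reverse the ACSL reaction, Acot9 was called lower (-0.30, adjusted p = 0.0246) and Acot13 higher (0.29, adjusted p = 0.0344). In each of these lists 1 gene was thus called lower and 1 higher, 16.7% each way of 6 binding genes tested and 20.0% of the 5 thioesterase genes. Over all genes tested the shares were 23.8% lower and 4.87% higher, and counts of 1 give no direction for a list. The calls of Dbi and Acot9 were lost after quantile normalization and after median centring, where Acot9 was at -0.10, and that of Acot9 also after scaling to Actb. Leaving out 1 library ended the call of Acot9 in 3 of 6 fits (anti–VEGF-B replicate 3 and IgG replicates 2 and 3) and that of Acot13 in 5 of 6 (all but IgG replicate 1).

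Downstream, 6 of 20 genes of acyl transfer to glycerolipids and sterols were called lower (30.0%, near the 23.8% of all genes tested) and 0 higher in limma, where at an unadjusted p under 0.05 the counts were 8 and 3. Mboat1 (-0.52), Agpat2 (-0.46) and Lpgat1 (-0.41), acyltransferases of phospholipid synthesis, had the lowest p (adjusted p from 0.0201 to 0.0261). Lpcat3, which places polyunsaturated acyl groups such as those activated by Acsl4 into phospholipids, was also called lower (-0.39, adjusted p = 0.0482; it falls outside the rule for named genes and was chosen after its values were seen). The triglyceride synthesis genes Dgat1 (0.37) and Dgat2 (0.25) had differences above 0 with no call (adjusted p = 0.0512 and 0.0822 from limma), and were also picked after their values were seen. After quantile normalization and after median centring, 0 genes of this list were called lower and 3 higher. Of all genes tested, 10.4% and 9.15% were called lower after these scalings and 9.98% and 15.5% higher. On the way to carnitine, Crot (-0.58), Slc22a5 (-0.39) and Cpt1a (-0.32) were called lower among 5 genes (adjusted p from 0.0197 to 0.0398 in limma). This was 60.0% of the list, against 23.8% of all genes tested, and 0 of the list were called after either of these scalings. Cpt2, the inner carnitine palmitoyltransferase of mitochondria, had also been named as lower by the study. It was under the filter and not tested, at 0.426 ± 0.0881 FPKM in anti–VEGF-B cells and 1.26 ± 0.169 in IgG cells (SD, n = 3 each), with groups that lay apart. With no filter, 4 of the 7 listed genes were called lower, where 21.2% of all genes tested were called lower.

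The list of lipid peroxidation and iron genes, in which Acsl4 is known to act, had a median log2 difference of 0.011. Gclc, the catalytic subunit for glutathione synthesis, was called lower (-0.68, adjusted p = 0.00657 from limma). Fth1, the heavy chain of ferritin (0.49, adjusted p = 0.00690), and Slc3a2 (0.33, adjusted p = 0.0257) were called higher. Slc3a2 encodes a heavy chain that the cystine transporter shares with other amino acid transporters. The other 14 genes of the 17 tested were not called, among them Gpx4, which reduces lipid peroxides (37.5 against 38.1 FPKM). The calls made up 5.88% (lower) and 11.8% (higher) of the list, against 23.8% and 4.87% of all genes tested. The number called higher was 3 after quantile normalization and 7 after median centring, where 9.98% and 15.5% of all genes tested were called higher.

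Of the 20 pathway genes named by the rule on p, 8 kept an adjusted p under 0.05 in limma in every fit that left out 1 library, namely Acbd7, Dbi, Fads1, Scd1, Scd2, Fth1, Gclc and Slc27a3. All but Dbi were also called after both quantile normalization and median centring. The other 12 lost their call in 1 or more of these fits, 11 of them without anti–VEGF-B replicate 3, among them Cpt1a, Crot, Agpat2 and Lipa, 8 when replicate 2 and 6 when replicate 1 of that group was left out. Leaving out IgG replicates 1, 2 and 3 in turn lost 1, 10 and 8 of the calls.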

How the data were processed

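RNA from 6 samples of activated mouse CD4+ T cells was sequenced from stranded libraries, 3 per treatment. The authors aligned reads to GRCm38 with hisat2 and StringTie and computed expression with Ballgown. Their deposited table of protein-coding genes names no unit, and its values, which are not whole, were taken as FPKM, scaled for transcript length and mapped reads, although the methods also mention raw counts. The filter behind the listed genes and a normalization between libraries are not given in the sources used here. The table holds no read counts, so depth and counting error are unknown, and all value columns were matched to a sample.

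From these values, log2(FPKM + 1) was fitted with limma 3.58.1 in R 4.3.3 (empirical Bayes with trend) over all 8816 genes whose mean reached 1 FPKM, anti–VEGF-B against IgG, and p-values were adjusted by the Benjamini-Hochberg method over all of them. Calls rest on an adjusted p under 0.05. SDs are over n = 3 libraries a group. Standard errors are those of limma, whose variance is pooled over both groups and moderated across genes. The script was tested on simulated data. Alternatives changed the scaling, filter, pseudocount, moderation or block, or left out a library. Positions are those of the table.

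The 5 Acsl genes and the lists were chosen with earlier results of these data known. Named pathway genes are, in each list and direction, up to 3 called genes with the lowest p, and genes most like a member are the 3 with the highest Pearson's r over the 6 libraries. Some genes are not reported here.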

Additional observations from a re-analysis of the deposited data

How the results depend on the processing

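Acsl5 stayed below 0 and Acsl3 above 0 under each alternative in which they were measured, of which only the scalings could have turned a direction. Acsl5 was at -0.71 with quantile normalization, -0.73 with median centring and -1.14 with a pseudocount of 0.1 FPKM, and Acsl3 at 0.54 and 0.55 after these scalings. Acsl4 was at -0.00025 after median centring, -0.142 with quantile normalization and -0.135 scaled to Actb. Acsl1 reversed to 0.042 with quantile normalization and 0.089 with median centring, and ran from -0.22 to 0.0065 with 1 library left out (the latter without IgG replicate 2). With a mean of at least 5 FPKM, Acsl5 and Acsl1 had no value. The summed Acsl FPKM, at -12.9% against IgG, reversed to 5.86% divided by the library median, an alternative chosen after seeing the data. The share of Acsl5, lower by 6.16 points, was at -5.13 points after quantile normalization and between -7.03 and -5.36 with 1 library left out.

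Against 2099 genes called lower and 429 higher, the counts were 913 and 880 with quantile normalization, 807 and 1365 with centring on the median, 1309 and 365 scaled to Actb, 989 and 342 with a mean of at least 5 FPKM, and 6 and 6 without moderation, where 3208 genes had an unadjusted p under 0.05. With 1 library left out they ran from 702 to 2074 lower and from 163 to 395 higher, both lowest without anti–VEGF-B replicate 3. For the 77 pathway genes, 21 lower and 5 higher became 5 and 9, 6 and 13, 14 and 5, 7 and 4 (of 38 tested), and 0 and 0 in the same order (31 with an unadjusted p under 0.05 in the last), and from 6 to 25 lower and from 3 to 6 higher with 1 library left out. The cause was not tested.

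With the replicate block, 2109 genes were called lower and 469 higher, and 19 and 5 among pathway genes. Deviations of same-numbered libraries correlated at -0.030, 0.11 and 0.089, and those of differently numbered libraries at -0.17 to 0.10. Anti–VEGF-B replicate 1 correlated best with IgG replicate 2 (0.057). As deviations within a group of 3 are tied to each other, these values cannot decide whether the numbers pair the libraries. FPKM carry no depth, and low genes such as Acsl1 are the least certain.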

Other observations

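Among synthetases under the filter of 1 FPKM, Acss1, of mitochondrial acetyl-CoA formation, was at 0.126 ± 0.0186 FPKM in anti–VEGF-B cells against 0.321 ± 0.0915 in IgG cells (SD, n = 3 each). Acsf3, which activates malonate in mitochondria, was at 0.470 ± 0.134 and 0.837 ± 0.166. The groups lay apart downward for both genes, as for 38.5% of the genes tested, all of which passed the filter. The share among genes under the filter was not computed. Acsf2 was at 0.192 ± 0.0625 and 0.542 ± 0.269, with overlapping groups. None of these was tested, and at such levels the counting error is unknown.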
